A study of Arabidopsis thaliana with 6 samples.

Results

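IAGLU, IAA29 and HAT2 are 3 Arabidopsis thaliana genes of the response to the growth hormone auxin and, for IAA29 and HAT2, to shade. Their transcripts were followed in leaves of the pad4 est1b double mutant and of the pad4 mutant. They are 3 of 13350 gene names that have a probe set of their own on the Affymetrix ATH1 arrays used, under the annotation applied here. Each has 1 such probe set, so no choice between probe sets was needed. The genes were chosen with their signals in both genotypes and in every replicate already known. Their values are therefore given as a description, and no test of genotype or of replicate number was made on them.

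Auxin acts by removing repressors. The Aux/IAA proteins, of which IAA29 is one, bind auxin response factors and hold their target genes down until auxin brings the repressors to an F-box receptor, which marks them for destruction. Many Aux/IAA genes are themselves switched on by auxin, and IAA29 is also known as a target of the phytochrome-interacting factors, which act when neighbouring plants filter the red light out of daylight. HAT2 encodes a homeodomain-leucine zipper transcription factor of class II, a class that responds to auxin and to shade. IAGLU is annotated as an indole-3-acetate beta-D-glucosyltransferase, an enzyme that joins auxin to glucose and so takes it out of the active pool.

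The double mutant group has 3 arrays and carries pad4-1 together with est1b-1, described in the labels as a knock-out of At5g19400 and At3g52430. The pad4 group has 3 arrays and carries pad4-1 alone, so loss of PAD4, a regulator of salicylic acid defence, is shared by all 6 arrays, and no wild-type array is among them. EST1B takes part in nonsense-mediated mRNA decay, in which cells break down messages that carry an early stop codon and some intact ones. The background is given as Col-0 for the double mutant and Col for pad4. Seeds were held in the cold for 24 h, plants grew on soil for 2 weeks at about 95% humidity and a further 3 weeks at about 70%, at 22 °C, and total RNA was taken from leaves. The labels write the day as longer than the night for the first period and, in the same notation, as shorter for the second; which was meant was not settled. The stage is labelled 5.10 weeks for the 3 double mutant samples and pad4 replicate 1, and 3.90 weeks for pad4 replicates 2 and 3, whose tissue is given as leaves rather than developed rosette leaves. The growth periods of 2 and 3 weeks are the same for all 6 samples, and 3.90 weeks is less than these together. Whether the stage labels give an age or a code for a developmental stage was not settled. Nothing in the labels says whether replicates were separate plantings, so the spread between them may be technical.

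Total signal ran from 3405664 to 3749162 units in the double mutant arrays and from 3496248 to 3894818 in the pad4 arrays. As deposited, each array had a 2%-trimmed mean of 100.0 units. Neither EST1B nor PAD4 is named alone by any probe set used here, which leaves the genotypes as the labels give them. Of 10 leaf markers 3 could be read, and their summed signal was 12645 to 18424 units in double mutant arrays and 14225 to 14768 units in pad4 arrays. Of 9 root markers 3 could be read, with summed signals of 14.4 to 29.4 units in double mutant arrays and 9.17 to 16.3 units in pad4 arrays. The meristem gene CLV3, the 1 marker of 12 for flower and meristem that could be read, did not exceed 1.60 units on any array. RNA integrity was read from the array's control probe sets for actin and GAPDH, as the mean log2 ratio of 3' over 5' signal, whose size depends on the probe sets taken. It was 2.57 to 2.87 in the double mutant and 2.24 to 3.00 in pad4, so the groups overlapped.

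IAGLU showed the widest gap between the genotypes of the 3 genes on the log2 scale. Its signal was 20.04, 18.6 and 17.1 units in double mutant replicates 1, 2 and 3, against 63.8, 65.1 and 27.0 units in pad4 replicates 1, 2 and 3. All 3 double mutant arrays lay below all 3 pad4 arrays, and pad4 replicate 3 stood much nearer to the double mutant than to the other pad4 arrays. Double mutant arrays averaged 18.6 ± 1.49 units and pad4 arrays 52.0 ± 21.6 units (SD, n = 3 each). The spread within pad4 was thus large beside that within the double mutant, with an SD of 41.6% of the mean in pad4 and of 8.02% in the double mutant.

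On the log2 scale, after an offset of 10 units, IAGLU differed by -1.05 ± 0.33 (SE), double mutant minus pad4. The offset holds back the difference of so dim a gene, which was -1.34 with an offset of 1 unit and -0.72 with 30 units. Without pad4 replicate 3 it was -1.38. Its mean in the double mutant lay below the minimum of 20 units set for the mean over all 6 arrays, so IAGLU was kept only through its pad4 signal. Whether the transcript was detected in the double mutant cannot be stated, since no detection calls were used here. In a bulk leaf sample, fewer cells that express a gene and less RNA per cell cannot be told apart.

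IAA29 was lower in the double mutant too, but its groups nearly touched. Its signal was 76.0, 92.1 and 55.3 units in double mutant replicates 1, 2 and 3, against 94.9, 128 and 140.4 units in pad4 replicates 1, 2 and 3. The highest double mutant array, replicate 2, was 2.79 units under the lowest pad4 array, replicate 1, which is less than the spread within either group. Double mutant arrays averaged 74.5 ± 18.5 units and pad4 arrays 121 ± 23.5 units (SD, n = 3 each), a log2 difference of -0.64 ± 0.28 (SE).

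The replicate 3 arrays pulled IAA29 apart. IAA29 was lowest of all 6 arrays in double mutant replicate 3 and highest of all in pad4 replicate 3. Without both replicate 3 arrays its log2 difference was -0.36. Set against pad4 replicate 1 alone, the 1 pad4 array with the same stage label as the double mutant, it was -0.34 ± 0.44 (SE).

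HAT2 had the smallest difference of the 3, and its groups overlapped. Its signal was 117, 143 and 106 units in double mutant replicates 1, 2 and 3, against 202, 177 and 131 units in pad4 replicates 1, 2 and 3. Pad4 replicate 3 lay below double mutant replicate 2, while the other pad4 arrays lay above every double mutant array. Double mutant arrays averaged 122 ± 19.1 units and pad4 arrays 170.2 ± 36.1 units (SD, n = 3 each), a log2 difference of -0.44 ± 0.27 (SE). Against pad4 replicate 1 alone it was -0.70 ± 0.42 (SE), since that array is the brightest for HAT2.

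**Figure D1:**
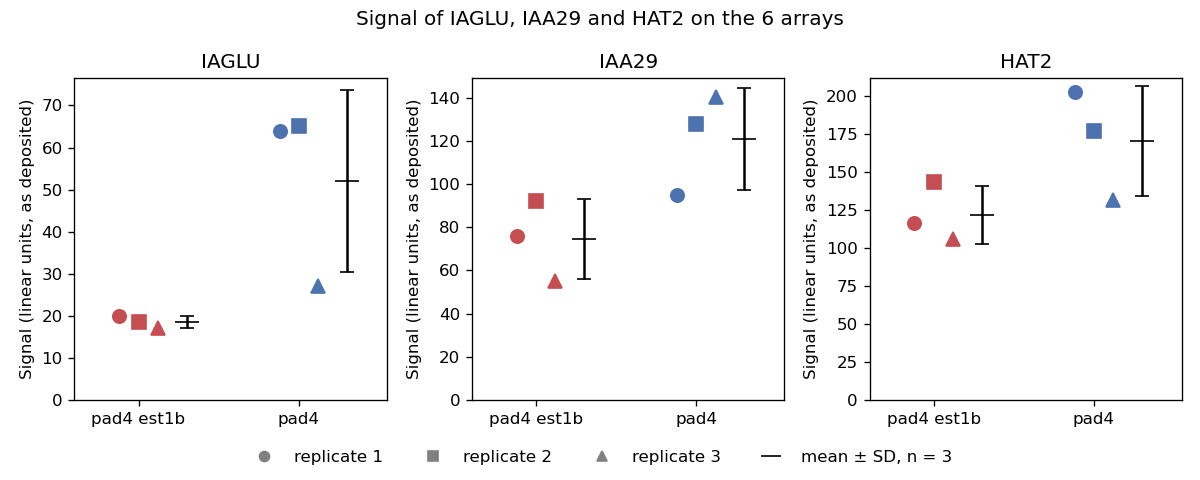
Deposited signal (linear units, vertical axis from 0) of IAGLU, IAA29 and HAT2 in the 3 pad4 est1b arrays (red, left) and the 3 pad4 arrays (blue, right); the marker shape gives the replicate number and the black bars the mean ± SD (n = 3). The double mutant arrays lie below all pad4 arrays for IAGLU and IAA29, by 6.98 and 2.79 units at the nearest, while for HAT2 pad4 replicate 3 (131 units) lies below double mutant replicate 2 (143 units).

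Compared number by number, the 3 genes were lower in the double mutant for each replicate number, but the size of the difference followed no common order. IAGLU in the double mutant stood at 31.4%, 28.5% and 63.1% of its pad4 signal for numbers 1, 2 and 3. IAA29 stood at 80.2%, 72.1% and 39.4%, so that number 3, which gave the smallest difference for IAGLU, gave the largest for IAA29. HAT2 stood at 57.6%, 80.9% and 80.8%, with its largest difference at number 1. The labels do not say that equal numbers mark a shared planting, and the numbers were not taken as pairs.

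For comparison across the array, 14.2% of the 12804 probe sets kept were lower in the double mutant for all 3 numbers, and 3.4% had groups that did not overlap with the double mutant lower. Since the genes were chosen on this same contrast, nothing is read from these shares. By size, 35 of the 12804 probe sets had a more negative log2 difference than IAGLU, 261 than IAA29 and 703 than HAT2. For the same reason, nothing is read from these ranks. No probe set was called lower in the double mutant by limma at an adjusted p under 0.05 (0%), while 5 were called higher (0.0391%). With a replicate block in the fit, 11 were called lower and 70 higher. Before adjustment, 569 probe sets (4.44%) had a p under 0.05 by limma, 148 of them lower (1.16%).

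**Figure D2:**
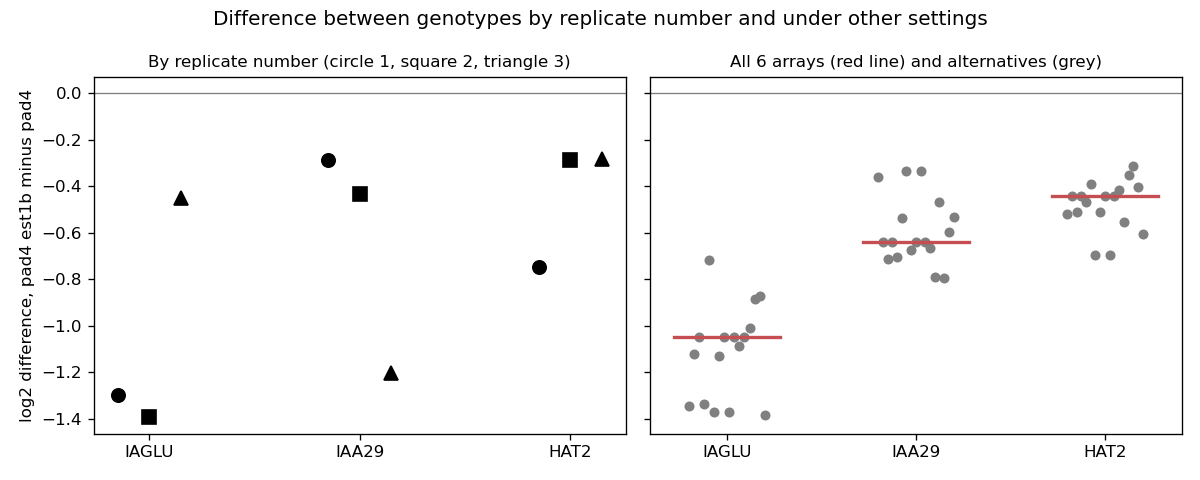
Log2 difference of log2(signal + 10), pad4 est1b minus pad4 (vertical axis), for IAGLU, IAA29 and HAT2: left, for each replicate number; right, from all 6 arrays (red line) and under each alternative setting (grey points). All points lie below 0, and number 3 gives the smallest difference for IAGLU (-0.45) and the largest for IAA29 (-1.20).

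Within 1 genotype the arrays also differed. In pad4, replicate 3 differed from replicate 1 by -0.996 on the log2 scale for IAGLU, by -0.59 for HAT2 and by 0.52 for IAA29. In the double mutant the same differences were -0.15 for IAGLU, -0.13 for HAT2 and -0.40 for IAA29. The difference between these pad4 arrays was therefore about as large for IAGLU, and larger for HAT2, than the mean difference between the genotypes. IAA29 thus differed in the opposite direction to the other two between these pad4 arrays, and in the same direction between the double mutant arrays.

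The 3 genes shared their pattern only in part. Over the 6 arrays the log2 signals of IAGLU and HAT2 had a Pearson correlation of 0.91, against 0.55 for IAGLU with IAA29 and 0.55 for IAA29 with HAT2. These are descriptions over 6 arrays that share 2 genotypes and 3 replicate numbers. All 3 are low in the double mutant by choice, so part of each value is given by how the genes were picked.

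Among 6891 other named probe sets kept, those whose log2 signals followed IAGLU most closely were AT3G20790, AT2G21560 and XTH19, with Pearson correlations of 0.993, 0.992 and 0.987 over the 6 arrays. A correlation above 0.9 with IAGLU was reached by 53 of them. XTH19, a xyloglucan endotransglucosylase/hydrolase that remodels the cell wall, had 12.7, 7.53 and 5.56 units in double mutant replicates 1, 2 and 3, against 42.7, 43.9 and 14.4 units in pad4 replicates 1, 2 and 3. It shares with IAGLU the low pad4 replicate 3 because it was picked for its likeness to IAGLU. Like IAGLU, XTH19 and AT2G21560 were kept only through their pad4 signal, with double mutant means of 8.60 and 14.4 units. AT3G20790 had 109.8, 101 and 105 units in the double mutant, against 192, 211 and 121 units in pad4. Its pad4 replicate 3 was again nearest to the double mutant, which follows from the same choice.

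IAA29 was followed most closely by AT1G65490, AT4G22190 and AT5G57910, with Pearson correlations of 0.989, 0.985 and 0.973 over the 6 arrays. AT1G65490 had 268, 401 and 159 units in double mutant replicates 1, 2 and 3, against 401, 583 and 899 units in pad4 replicates 1, 2 and 3. It was lowest in double mutant replicate 3 and highest in pad4 replicate 3, a pattern it shares with IAA29 because it was picked for it. HAT2 was followed most closely by AT3G10810, AT3G13510 and AT2G01710, with 0.995, 0.990 and 0.981. These differed less between genotypes than HAT2 did, with log2 differences of -0.19, -0.31 and -0.25. A correlation above 0.9 was reached by 50 probe sets with IAA29 and by 38 with HAT2.

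**Figure D3:**
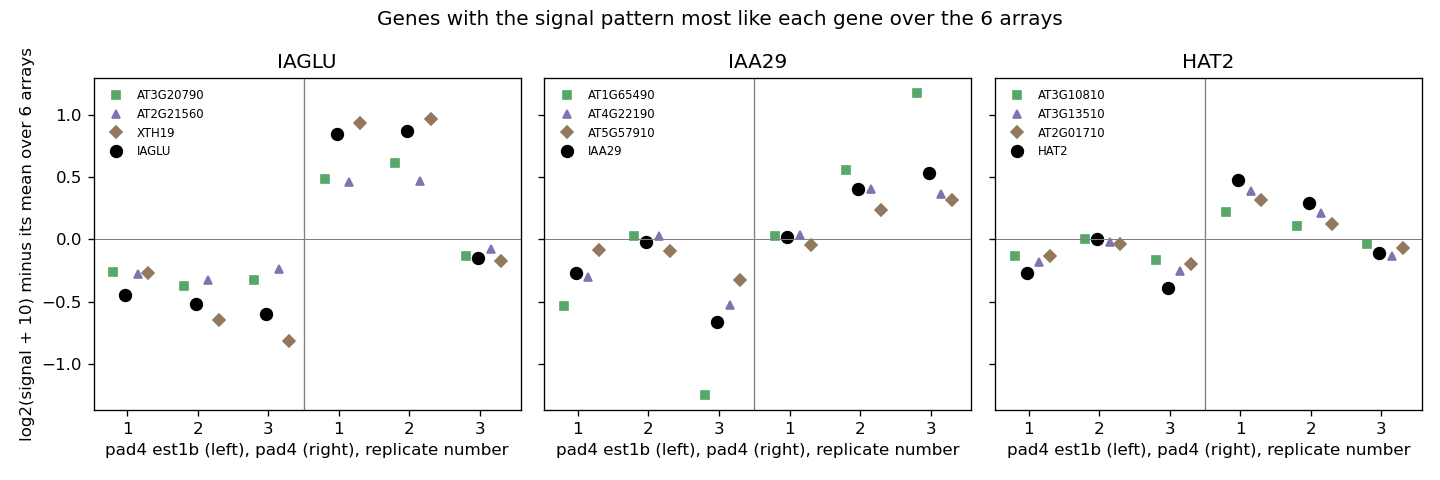
Log2(signal + 10) minus its mean over the 6 arrays (vertical axis) for IAGLU, IAA29 and HAT2 (black circles) and the 3 named genes most correlated with each (coloured markers), by array: pad4 est1b replicates left of the line, pad4 replicates right of it. Pad4 replicate 3 is the lowest pad4 array for IAGLU and HAT2 and the highest for IAA29.

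The rest of the auxin and shade pathway was mostly out of reach. Of 204 further genes on 10 lists, 29 had a probe set that named them alone and 10 of these were bright enough to test. None of the 10 was called by limma in either direction over all 12804 probe sets, against 0.0391% of all probe sets, and 0 of the 10 had an unadjusted p under 0.05, against 4.44% of all. Their log2 differences were negative in 7 and positive in 3, where 45.4% of all probe sets were negative, and their median was -0.06, beside 0.03 for all probe sets. In none of the 10 were the groups apart, which 3.4% of all probe sets showed with the double mutant lower and 6.41% with it higher. The sign of 8 of the 10 turned under at least 1 alternative setting. FHL and UGT84A3 kept theirs, but not their size. FHL was at -0.06 without both replicate 3 arrays, and UGT84A3 at 0.07 with only samples labelled 5.10.

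Among the Aux/IAA repressors, the family of IAA29, only IAA18 was kept of 28 others listed. IAA18 had 176, 232 and 290.4 units in double mutant replicates 1, 2 and 3, against 206, 237 and 369 units in pad4 replicates 1, 2 and 3. Its groups overlapped, and its log2 difference was -0.19 with a 95% interval from -0.92 to 0.53 (limma, adjusted p = 1.00). In both genotypes IAA18 was highest in replicate 3, as IAA29 was in pad4 but not in the double mutant.

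The other 5 family members with a probe set of their own, IAA20, IAA30, IAA31, IAA33 and IAA34, were under the minimum signal and were not tested. IAA30 had 7.91, 12.4 and 9.03 units in double mutant replicates 1, 2 and 3, against 16.1, 16.9 and 14.6 units in pad4 replicates 1, 2 and 3. The groups did not overlap for IAA30, IAA31 and IAA33, with the double mutant lower, and they overlapped for IAA20 and IAA34. Of all 9942 probe sets under the minimum, 4.45% had groups apart with the double mutant lower. All signals of these 5 genes were under 20 units, so they are given as values alone. For every gene under the minimum on the other auxin, shade and glucosyltransferase lists, the groups overlapped.

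Of the genes that conjugate or inactivate auxin, the role annotated for IAGLU, 3 others of 22 were kept and none passed. GH3.5, named WES1 in the reference table, links auxin to amino acids. It had 79.9, 56.2 and 23.3 units in double mutant replicates 1, 2 and 3, against 150.3, 67.8 and 22.4 units in pad4 replicates 1, 2 and 3. The difference among arrays of 1 genotype was far larger than that between genotypes, and replicate 3 was the lowest array in both. The log2 difference of GH3.5 was -0.34, with a 95% interval from -1.71 to 1.02 (limma, adjusted p = 1.00). WES1 differed by -1.46 ± 0.56 (SE) against pad4 replicate 1 alone, by 0.21 without that array, by 0.06 without double mutant replicate 3, by -0.66 without double mutant replicate 1 and by -0.94 without pad4 replicate 3, so its value and sign rest on single arrays. DAO1, an oxidase that inactivates auxin, had -0.01, from -0.62 to 0.59. UGT74D1, a glucosyltransferase with activity on auxin, had -0.06, from -0.67 to 0.55.

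IAGLU belongs to group L of the plant glucosyltransferases, which use a sugar nucleotide and of which only some make glucose esters. Of its 16 listed relatives, 5 were kept. UGT84A3 averaged 57.3 ± 6.86 units in double mutant leaves and 46.9 ± 6.46 units in pad4 leaves (SD, n = 3 each), a log2 difference of 0.24 with a 95% interval from -0.31 to 0.80 (limma, adjusted p = 1.00). UGT84A4 had 0.11, from -0.45 to 0.66. UGT74B1 and UGT74C1, both linked to glucosinolate synthesis, had -0.18 and 0.13, with ranges over the alternative settings from -0.73 to 0.10 and from -0.29 to 0.39. UGT74D1 is the fifth and is given above.

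YUC2, a flavin monooxygenase of auxin synthesis, was the 1 of 16 synthesis genes that was kept. It averaged 21.1 ± 3.76 units in double mutant leaves and 22.5 ± 4.00 units in pad4 leaves (SD, n = 3 each), a log2 difference of -0.06 with a 95% interval from -0.63 to 0.50 (limma, adjusted p = 1.00). FHL, which helps bring phytochrome A into the nucleus, was the 1 of 18 further shade response genes that was kept. It had 18.5, 27.5 and 17.3 units in double mutant replicates 1, 2 and 3, against 23.2, 25.0 and 35.3 units in pad4 replicates 1, 2 and 3. Its log2 difference was -0.28 with a 95% interval from -0.89 to 0.33 (limma, adjusted p = 1.00). No class II homeodomain-leucine zipper gene other than HAT2, no auxin receptor or response factor and no auxin transporter on the lists had a probe set that named it alone. SAUR10 and the light signalling factor HYH had one, under the minimum signal on average.

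**Figure D4:**
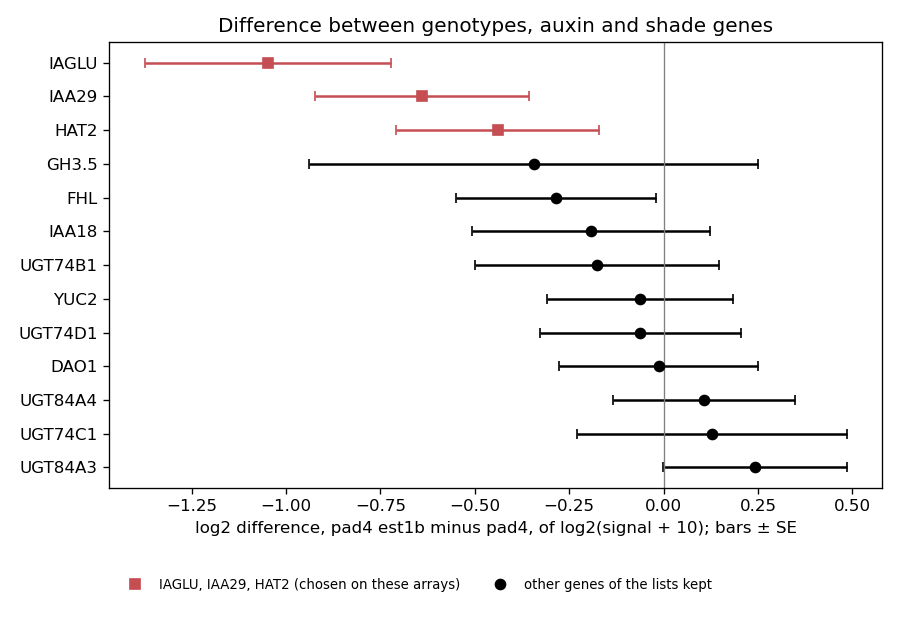
Log2 difference of log2(signal + 10), pad4 est1b minus pad4 (horizontal axis, bars ± SE of the limma fit, n = 3 arrays each), for IAGLU, IAA29 and HAT2 (red squares) and the 10 other genes kept from the auxin, shade and group L glucosyltransferase lists (black circles). The 10 lie between -0.34 for GH3.5 and 0.24 for UGT84A3, and none passed the test.

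The genes next to the 3 on the chromosome were read as well, taking 3 protein-coding genes on each side in the reference order. Of these 18 neighbours, 7 were kept, 3 were under the minimum signal and 8 had no probe set of their own. None of the 7 was called by limma, against 0.0391% of all probe sets, and 1 had an unadjusted p under 0.05, against 4.44% of all. That gene is AT4G32270, second before IAA29, with 127, 136 and 144 units in double mutant replicates 1, 2 and 3, against 69.6, 47.1 and 61.0 units in pad4 replicates 1, 2 and 3. Its double mutant arrays all lay above its pad4 arrays, opposite to IAA29, with a log2 difference of 1.08 ± 0.25 (SE; limma, adjusted p = 0.57), which did not pass. On the other side of IAA29, AT4G32290 had 0.02 ± 0.26 (SE).

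Next to IAGLU, AT4G15545 averaged 1170.3 ± 545 units in double mutant leaves and 1205 ± 765 units in pad4 leaves (SD, n = 3 each), a log2 difference of 0.14 ± 0.62 (SE; limma, adjusted p = 1.00). Replicate 3 was its lowest array in both genotypes, with 635 units in the double mutant and 356 units in pad4, and the groups overlapped. Directly after HAT2, AT5G47380 was under the minimum signal and was not tested. It had 13.2, 2.96 and 5.34 units in double mutant replicates 1, 2 and 3, against 26.2, 19.3 and 13.4 units in pad4. Its groups did not overlap, which 4.45% of the probe sets under the minimum showed with the double mutant lower. The groups of AT5G47340 and AT5G47350, also under the minimum, overlapped. Second after HAT2 stands the MYB transcription factor gene AT5G47390, also called KUA1. It averaged 298 ± 98.6 units in double mutant leaves and 419 ± 123 units in pad4 leaves (SD, n = 3 each), a log2 difference of -0.49 ± 0.35 (SE; limma, adjusted p = 1.00), with groups that overlapped.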

How the data were processed

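The 6 ATH1 arrays, 3 per genotype, were deposited as linear intensities, 1 signal per probe set; the number of arrays limits the precision. The tools were MAS5 and GCOS, per the submitters' processing notes, with version and settings not given in the sources used here. Each array has a 2%-trimmed mean of 100.0. Groups and replicate numbers come from the sample titles.

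Genes were named through the platform annotation: of 22810 probe sets, 64 are controls, 13513 have 1 gene, 503 several and 8730 none listed. The RefSeq gene table (TAIR10.1), which matched 13436 of the 13513, gave current names and gene order, with no coordinates, since the annotation names no build. Where several probe sets named a gene the brightest was used.

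A mean signal of at least 20 was required and controls were dropped, leaving 12804 probe sets. Genotypes were compared on log2(signal + 10) with limma 3.58.1 under R 4.3.3, by lmFit and eBayes with genotype as the 1 term. Its two-sided p-values were adjusted over these probe sets by the Benjamini-Hochberg method and called under 0.05. The offset understates the change of dim genes. SE and 95% intervals are from this fit, which was tested on simulated data. Summaries were made in Python 3.11.15 with numpy 2.4.6, pandas 2.3.3 and scipy 1.17.1, and figures with matplotlib 3.10.9.

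IAGLU, IAA29, HAT2, the gene lists, the tests and the alternatives were chosen with earlier results of these data known. Named genes are these 3, every list member kept (lists of 6 or fewer kept), and the 3 most correlated named probe sets per gene; the chromosomal neighbours were added later. Alternatives were the offset, the filter, quantile normalization, median centring, a replicate block, the stage label, trend and robust options, and arrays left out. No sequences were used here.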

Additional observations from a re-analysis of the deposited data

How the results depend on the processing

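The log2 differences of IAGLU, IAA29 and HAT2 were negative in every alternative run (16 for IAGLU, which a filter at 50 units removes, and 17 each for the others), from -1.38 to -0.72 for IAGLU, -0.79 to -0.34 for IAA29 and -0.70 to -0.31 for HAT2. For IAA29 and HAT2 the largest moves came with the stage label as a covariate or with only samples labelled 5.10, both of which rest on pad4 replicate 1: -0.34 for IAA29 and -0.70 for HAT2. For IAGLU they came without pad4 replicate 3 (-1.38), with those stage settings (-1.37) and with an offset of 30 units (-0.72). With single arrays left out the values ran from -1.38 to -0.87 for IAGLU, -0.79 to -0.47 for IAA29 and -0.61 to -0.31 for HAT2. None of the other genes on the auxin, shade and group L glucosyltransferase lists was called by limma under any alternative (0 in each).

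Over all probe sets limma called 5. It called 0 without the filter, with an offset of 1 unit, with the stage label as a covariate and among samples labelled 5.10, 1 with median centring, 2 with quantile normalization and 19 without both replicate 3 arrays; leaving out single arrays gave 0 to 9. A fit with a replicate block called 81, of which 70 were higher and 11 lower. With the block the SE was smaller, at 0.23 for IAGLU, 0.23 for IAA29 and 0.20 for HAT2. Arrays with equal numbers deviated together for numbers 1 (correlation 0.83) and 3 (0.68) but not for number 2 (0.00023). The deviations were taken from each group's mean of 3 arrays, so these values depend on each other and cannot settle whether the numbers mark pairs. The main fit has no block because the labels state no pairing. The cause of these moves was not tested. The limits are 3 arrays per group, signals of IAGLU near the minimum, and few pathway genes with a probe set of their own.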
